A study of Arabidopsis thaliana with 4 samples.

Results

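The 10 genes described here cover the salicylic acid branch of plant defence in *Arabidopsis thaliana*, from synthesis of the hormone through its signalling to its output. They are *ICS1* (AT1G74710), *PBS3* (AT5G13320), *EDS5* (AT4G39030), *EDS1* (AT3G48090), *PAD4* (AT3G52430), *NPR1* (AT1G64280), *FMO1* (AT1G19250), *PR1* (AT2G14610), *PR2* (AT3G57260) and *PR5* (AT1G75040). They were chosen by locus, and all 10 were measured, by 18 of the 43603 gene probes on the array, among 34291 genes and transcripts tested. The seedlings were Col-0 wild type, or carried *bli-1*, which is the T-DNA insertion SAIL_107_D04 in *BLI* (AT3G23980). No treatment is named for either genotype, and seeds of both were stratified at 4°C. Both were grown on MS medium with sucrose in continuous light at 20°C until 12 days after germination. The paper reports that *bli-1* seeds germinate late and were sown earlier where genotypes were directly compared. It does not say whether this held for the arrays. RNA of whole seedlings was read on Agilent arrays with a single dye, Cy3, on 2 arrays for Col-0 and 2 for *bli-1*. The *bli-1* seedlings are 1 insertion line, and the labels do not say whether replicates came from separate sowings, so the p-values measure the spread between these arrays, which may be technical.

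Salicylic acid is made during defence mainly from chorismate in the plastid. ICS1 carries out the first step there, EDS5 exports the product, and PBS3 joins it to glutamate in the cytosol, after which the conjugate breaks down to the hormone. EDS1 and PAD4 act together upstream and amplify its accumulation, NPR1 perceives it and works as a transcriptional co-activator, and *PR1*, *PR2* and *PR5* are the classical pathogenesis-related genes read as its output.

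In *bli-1* the output genes *PR2* and *PR1* had the largest differences from Col-0, with means 6.42-fold and 4.53-fold higher. Their order is not settled, since *PR1* was not well above background on 1 of the 2 Col-0 arrays and had the larger difference under 5 of 17 alternatives. *FMO1* was 2.44-fold lower, and the other 7 genes differed by less than 1.5-fold. Over all genes and transcripts 4.93% were at least this much higher and 3.48% lower. By limma 0 of the 10 genes were called differentially expressed, which required a 1.5-fold change and p under 0.05 after Benjamini-Hochberg adjustment, a threshold that 0.0962% of all genes and transcripts passed as higher and 0.0175% as lower. With p left unadjusted and the fold change kept *PR1* and *PR2* were higher and *FMO1* was lower, against 2.48% of all tested as higher and 2.69% as lower. Whole seedlings were measured, so a different share of cells that express a gene and a different amount of its RNA per cell cannot be told apart.

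One array stood apart. Its source was *bli-1* replicate 2, where 91.7% of gene spots were well above background against 74.7% to 77.4% on the other 3 arrays, and where the negative control spots had a median intensity of 46.5 against 19 to 20. This array shared a slide with both Col-0 arrays, and *bli-1* replicate 1 lay on another slide, so slide and replicate cannot be told apart within *bli-1*. Over all genes the median absolute difference between arrays was 0.11 log2 units in Col-0 and 0.22 in *bli-1*. The number of arrays limits the precision throughout, and an exact two-sided permutation test of 2 against 2 arrays cannot go below 0.333. *BLI* itself had a mean log2 signal of 7.53 in *bli-1* against 9.08 in Col-0 (log2 fold change -1.55, standard error 0.16, adjusted p = 0.0823 by limma). The first of its probes read 451 and 380 intensity units in Col-0, against 21 and 143.5 in *bli-1*, where replicate 1 was not well above background. The second read 300 and 545 in Col-0 against 344 and 532 in *bli-1*, and where the probes lie relative to the insertion was not examined. Shoot markers (*RBCS1A*, *LHCB1.1*, *LHCB2.2*, *CA1*) and root markers (*PYK10*, *CASP1*, *EXPA7*, *PHT1;1*) were well above background on all 4 arrays. The root markers *CASP1*, *EXPA7*, *PYK10* and *PHT1;1* differed from the Col-0 mean by 0.44, -0.64, 0.53 and 0.83 log2 units in *bli-1* replicate 1, and by -1.19, -1.73, -0.19 and 0.04 in replicate 2. Of the shoot markers *CA1* was lower on both *bli-1* arrays, by -0.93 and -0.68, and the other 3 differed by between -0.20 and 0.59. The part of either tissue in the results was not tested.

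Intensities are given as read by the scanner software before normalization, and log2 signals after background correction and quantile normalization. A probe's intensity is compared only with the same probe on other arrays.

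**Figure D1:**
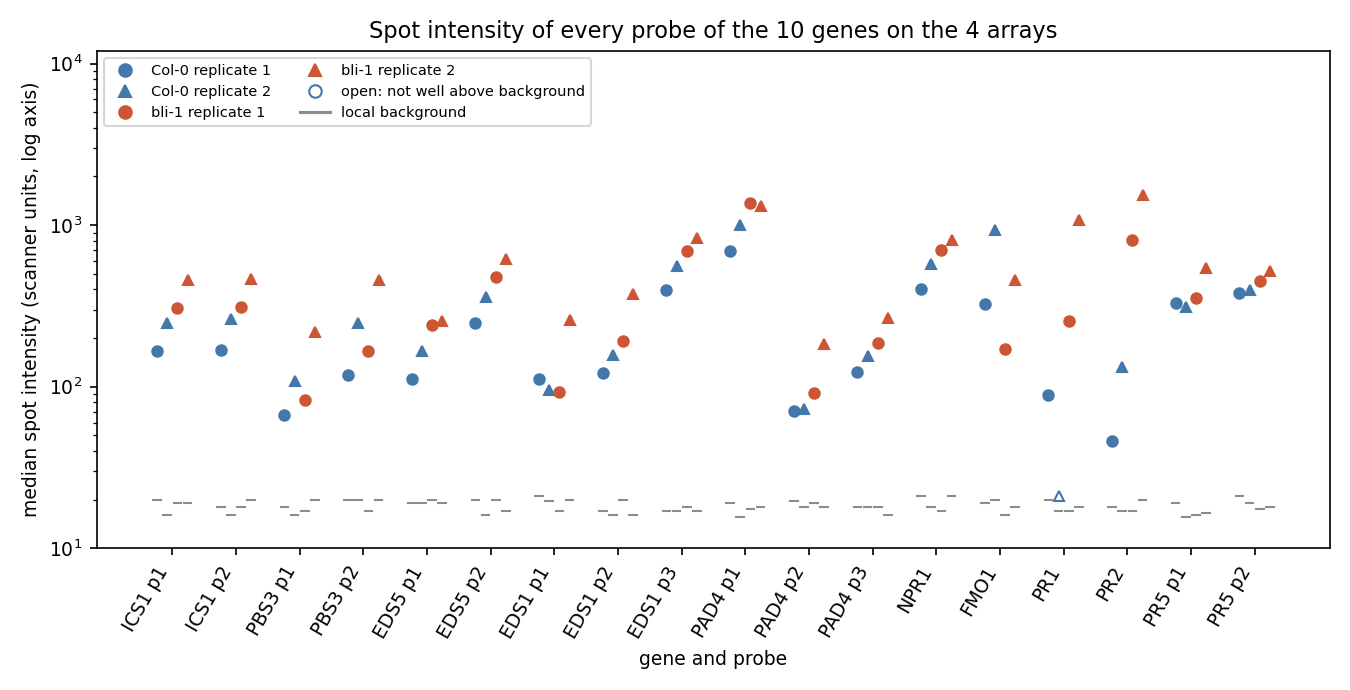
Median intensity of each spot on a log axis, in scanner units, for all 18 probes of the 10 genes, with circles for replicate 1 and triangles for replicate 2 of Col-0 (blue) and *bli-1* (red), grey lines for the local background of each spot, and an open symbol where a spot was not well above background. *PR2* has both *bli-1* arrays at 806 and 1526 against 46 and 132 in Col-0, and *bli-1* replicate 2, the brightest array as a whole, is the highest for most probes.

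Among the genes of synthesis, *ICS1* encodes isochorismate synthase. Its log2 signal was 8.19 and 8.30 in Col-0 replicates 1 and 2, and 8.40 and 8.55 in *bli-1* replicates 1 and 2. Both *bli-1* arrays lay above both Col-0 arrays, by a small margin. The log2 fold change was 0.23 (standard error 0.14, 95% interval -0.12 to 0.58, adjusted p = 0.628 by limma). The 2 probes of *ICS1* gave 0.24 and 0.22 and so were close to each other. Under every alternative tried the value was between 0.16 and 0.31.

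*EDS5*, a transporter of the plastid envelope, had log2 signals of 8.17 and 8.27 in Col-0 and of 8.51 and 8.28 in *bli-1*. The groups did not overlap, but *bli-1* replicate 2 was only 0.01 above the higher Col-0 array. The difference was 0.17 (standard error 0.14, 95% interval -0.20 to 0.55, adjusted p = 0.672). One probe carried most of it, with 0.28 against 0.06 for the other. It also rested on single arrays, being 0.06 without *bli-1* replicate 1 and 0.30 without *bli-1* replicate 2.

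*PBS3*, the amidotransferase, had log2 signals of 7.49 and 7.85 in Col-0 and of 7.45 and 7.91 in *bli-1*. The groups overlapped fully, and the spread within each genotype was far wider than the difference of 0.01 between the means (standard error 0.22, 95% interval -0.58 to 0.59, adjusted p = 0.992). In both genotypes replicate 2 was the higher array. The probes differed in sign, with -0.13 and 0.14, and the sign for the gene turned under several alternatives.

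Of the signalling genes, *EDS1* and *PAD4* encode lipase-like proteins that form a complex. *EDS1* had log2 signals of 8.26 and 8.12 in Col-0 and of 8.16 and 8.42 in *bli-1*, so the groups overlapped. Its difference was 0.10 (standard error 0.15, 95% interval -0.30 to 0.50, adjusted p = 0.809), and its 3 probes gave -0.10, 0.25 and 0.15. *EDS1* has a close tandem copy, *EDS1B* (AT3G48080), and which of the copies each probe binds was not examined, so both values are uncertain in that respect.

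*PAD4* had log2 signals of 8.37 and 8.29 in Col-0 and of 8.45 and 8.26 in *bli-1*. The highest and the lowest array were both from *bli-1*. The difference was 0.02 (standard error 0.14, 95% interval -0.33 to 0.38, adjusted p = 0.958), and the 3 probes gave 0.18, -0.08 and -0.04.

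*NPR1* was the most even of the 10 genes across arrays, with 9.28 and 9.27 in Col-0 against 9.40 and 9.40 in *bli-1*. Of all genes, 93.6% had a larger difference between replicates in Col-0 and 97.8% in *bli-1*. Both *bli-1* arrays lay above both Col-0 arrays, yet the difference was only 0.12 (standard error 0.12, 95% interval -0.19 to 0.44, adjusted p = 0.704).

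*FMO1* encodes the monooxygenase that makes N-hydroxypipecolic acid, the mobile signal of systemic acquired resistance, which acts beside salicylic acid. Its single probe read 325.5 and 933 intensity units in Col-0, against 171 and 457 in *bli-1*, over local backgrounds of 16 to 20. In log2 signal this was 9.01 and 9.90 in Col-0, against 7.79 and 8.55 in *bli-1*. The raw intensities overlapped, *bli-1* replicate 2 being the brightest array as a whole, and after normalization both *bli-1* arrays were below both Col-0 arrays. The log2 fold change was -1.29 (standard error 0.40, 95% interval -2.33 to -0.25, past the unadjusted threshold, adjusted p = 0.393 by limma). The Col-0 arrays differed from each other by more than those of 99.6% of all genes. Every alternative gave a lower level in *bli-1*, from -1.80 to -0.81. It passed the unadjusted threshold under 11 of 17, and not without Col-0 replicate 2, with an offset of 0, with background subtraction, with either scaling of the scanner software's corrected signal or with normexp and 75th percentile scaling. The value was -0.81 without Col-0 replicate 2.

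The output genes held the largest positive differences of the 10. *PR2* encodes a beta-1,3-glucanase. Its probe read 46 and 132 intensity units in Col-0, against 806 and 1526 in *bli-1*, over local backgrounds of 17 to 20. The log2 signal was 6.89 and 7.62 in Col-0, against 9.57 and 10.31 in *bli-1*. All 4 spots were well above background and the groups were far apart, with the lower *bli-1* array 1.95 above the higher Col-0 array. The replicate difference was still large, exceeding that of 99.2% of all genes in Col-0 and of 89.7% in *bli-1*. The log2 fold change was 2.68 (standard error 0.36, 95% interval 1.75 to 3.61, past the unadjusted threshold, adjusted p = 0.118 by limma), and only 17 genes and transcripts had a larger positive one. It passed the unadjusted threshold under all 17 alternatives, with values from 2.41 to 3.84.

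*PR1*, a gene of a small secreted protein that is the usual marker of salicylic acid signalling, differed in both genotypes from array to array. Its probe read 89 and 21 intensity units in Col-0, where replicate 2 was at the local background of 17 and not well above it. In *bli-1* it read 254 and 1080. The log2 signal was 7.46 and 6.18 in Col-0, against 8.18 and 9.82 in *bli-1*. Both *bli-1* arrays lay above both Col-0 arrays, replicate 1 by 0.72 over the higher of them, while the Col-0 arrays were 1.28 apart and the *bli-1* arrays 1.64. Replicate differences this large were rare, and exceeded those of 99.9% of all genes in Col-0 and of 99.2% in *bli-1*. The log2 fold change was 2.18 (standard error 0.68, 95% interval 0.40 to 3.96, past the unadjusted threshold, adjusted p = 0.397 by limma).

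The size of the *PR1* difference rested on single arrays and on the treatment of the dim Col-0 spot. It was 1.47 without Col-0 replicate 2 and 1.38 without *bli-1* replicate 2, and in neither case did it pass the unadjusted threshold. It was 3.06 without Col-0 replicate 1. With plain subtraction of the background it was 4.12, and with the scanner software's own corrected signal 4.64 or 5.24, with quantile normalization and with 75th percentile scaling. With subtraction and with the corrected signal *PR1* did not pass the unadjusted threshold either, and it passed under 10 of 17 alternatives in all. The Col-0 replicate 2 spot was 4 intensity units above its background.

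*PR5*, which encodes a thaumatin-like protein, did not follow the other output genes. Its log2 signal was 9.12 and 8.66 in Col-0, against 8.69 and 8.78 in *bli-1*. The *bli-1* arrays lay between the Col-0 arrays, and the difference was -0.15 (standard error 0.19, 95% interval -0.65 to 0.35, adjusted p = 0.764). Its 2 probes gave -0.09 and -0.22. Without Col-0 replicate 1 the sign turned, to 0.08.

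**Figure D2:**
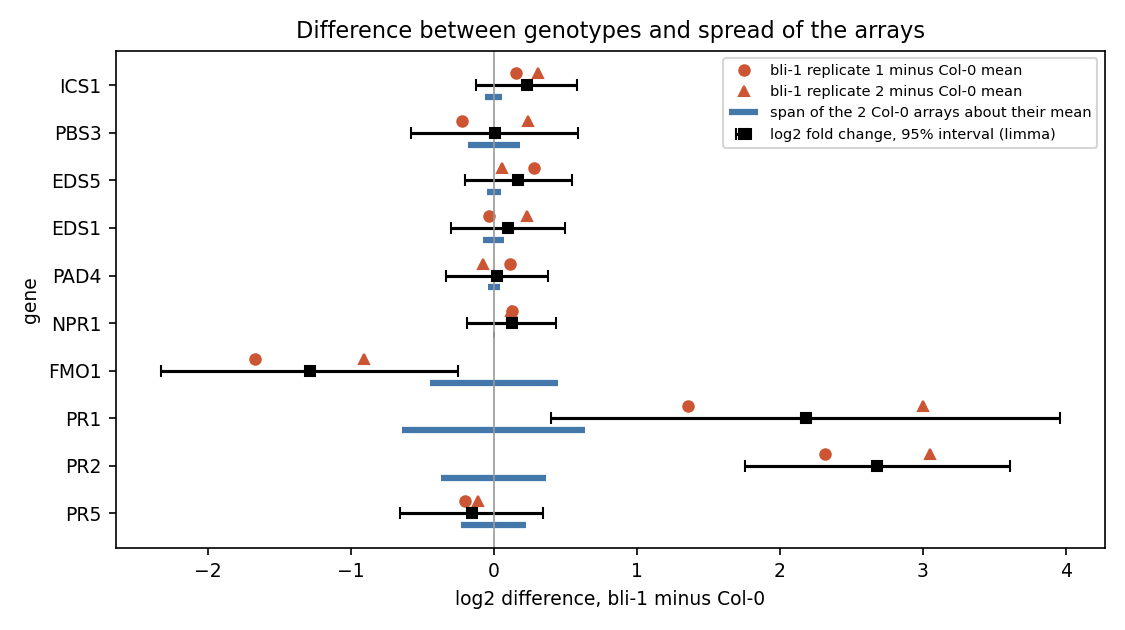
Log2 difference between *bli-1* and Col-0 for each of the 10 genes, with the limma estimate and its 95% interval (black squares and bars), each *bli-1* array against the Col-0 mean (red circles for replicate 1, triangles for replicate 2) and the span of the 2 Col-0 arrays about their mean (blue bars). The intervals of *PR1*, *PR2* and *FMO1* lie to one side of 0, and those of the other 7 genes include 0.

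Both *bli-1* arrays were above both Col-0 arrays for *ICS1*, *EDS5*, *NPR1*, *PR1* and *PR2*, which are 5 of the 10 genes, and below for *FMO1*. Over all genes and transcripts 21.2% were so separated upward and 23% downward. The median log2 fold change of the 10 genes was 0.11, against -0.01 over everything tested. With the scanner software's signal scaled to the 75th percentile, the median of all genes itself moved to 0.27 and that of the 10 genes to 0.25.

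The comparison within the slide that held both genotypes, which is *bli-1* replicate 2 against both Col-0 arrays, called *PR1* and *PR2* higher. It gave log2 fold changes of 3.0 for *PR1* (adjusted p = 0.00427) and of 3.05 for *PR2* (adjusted p = 0.00082), both by limma with slide as a block. With this fit 9.33% of all genes and transcripts were called higher and 7.27% lower. *FMO1* was at -0.90 in it (adjusted p = 0.0876) and was not called. The spread in this fit comes from the Col-0 pair alone, so *bli-1* is represented by 1 array, the one with the raised negative controls. Leaving out *bli-1* replicate 1 likewise called *PR1* and *PR2*, at 2.86 and 2.92 (adjusted p = 0.0146 and 0.00445), beside 8.66% of all tested as higher and 6.2% as lower.

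**Figure D3:**
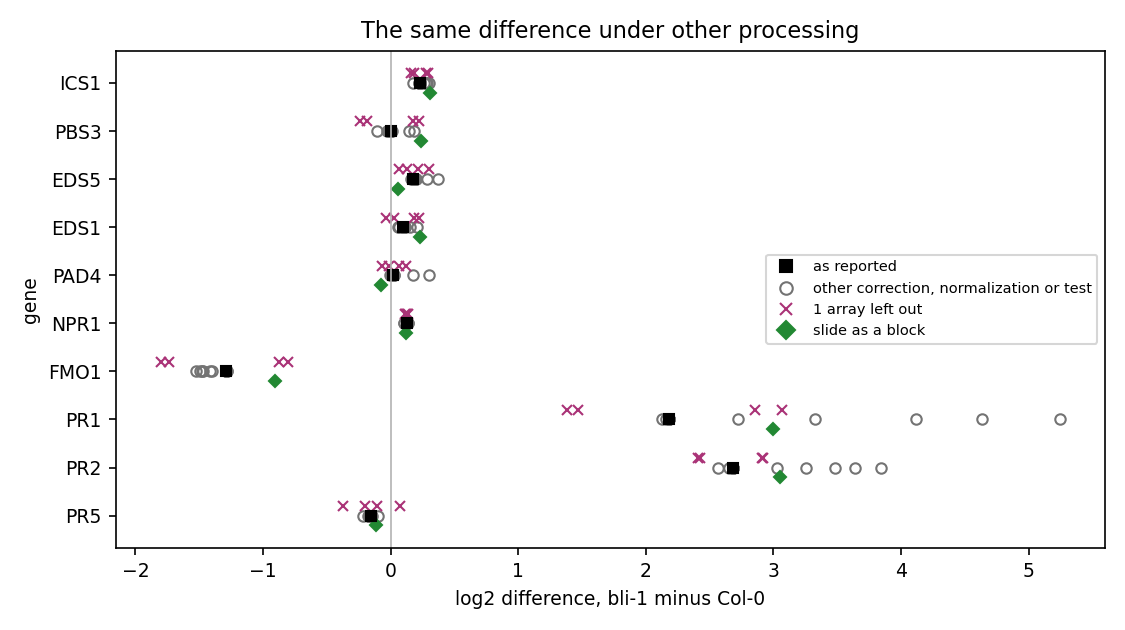
Log2 difference between *bli-1* and Col-0 for each of the 10 genes as reported (black squares), under other background corrections, normalizations or tests (grey circles), with 1 array left out (crosses) and with slide as a block (green diamonds). *PR2* stayed between 2.41 and 3.84 and *FMO1* between -1.80 and -0.81, while *PR1* ranged from 1.38 to 5.24.

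The genes around these 10 were counted in 7 further lists of salicylic acid and related defence genes. The list of other PR and defensin genes is not limited to the salicylic acid pathway. Of 66 genes listed 64 had a probe, *CBP60a* and *ADR1-L1* being not measured here. By limma 0 of the 64 were called, where 0.0962% of everything tested was called higher and 0.0175% lower. At the unadjusted threshold 8 were higher and 2 lower in *bli-1*, beside 2.48% and 2.69% of everything tested, and the counts of each list stand beside the same shares. By fold change alone 9 were at least 1.5-fold higher and 6 lower (4.93% and 3.48% of everything tested). The groups did not overlap for 22 upward and for 7 downward (21.2% and 23% of everything tested). The median log2 fold change was 0.11, against -0.01 over everything tested.

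Among 9 further genes of synthesis and its regulators, 2 were at least 1.5-fold higher and 1 lower by fold change alone (4.93% and 3.48% of everything tested). *WRKY28* and *CBP60g* passed the unadjusted threshold, and both encode transcription factors that activate *ICS1*. *WRKY28* had log2 signals of 6.99 and 7.03 in Col-0, and of 7.94 and 8.04 in *bli-1*. The arrays of each genotype were close together, and the difference was 0.98 (standard error 0.12, adjusted p = 0.116 by limma). *CBP60g* had 7.79 and 8.16 in Col-0, against 8.38 and 8.82 in *bli-1*, with a difference of 0.62 (standard error 0.22, adjusted p = 0.457). It passed the unadjusted threshold under only 8 of 17 alternatives, and *WRKY28* under 16. *ICS2*, the second isochorismate synthase gene, had 9.55 and 9.05 in Col-0 against 9.74 and 9.09 in *bli-1*, so that the groups overlapped (difference 0.11, standard error 0.29).

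The list of the EDS1 node and its helper receptors had 0 of 7 genes past the unadjusted threshold and a median of 0.39. *EDS1B* had log2 signals of 8.15 and 8.08 in Col-0, and of 8.54 and 8.78 in *bli-1*. The groups did not overlap, and the difference was 0.54 (standard error 0.14, adjusted p = 0.326 by limma), which is under 1.5-fold.

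In perception and transcription factors 0 of 18 genes passed the unadjusted threshold, and the median was 0.09. The paralogs of *NPR1* in this list were *NPR2*, *NPR3* and *NPR4*, of which *NPR3* and *NPR4* encode salicylic acid receptors that repress transcription. Their log2 fold changes were -0.07 (95% interval -0.50 to 0.36), 0.10 (-0.32 to 0.53) and -0.33 (-0.68 to 0.03). Of these *NPR4* alone had groups that did not overlap, with 10.41 and 10.56 in Col-0 against 10.09 and 10.23 in *bli-1*.

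Of 10 genes that convert salicylic acid, *UGT74F2*, a glucosyltransferase gene, passed the unadjusted threshold. Its log2 signal was 10.56 and 10.61 in Col-0, against 11.06 and 11.32 in *bli-1* (difference 0.61, standard error 0.15, adjusted p = 0.290 by limma). The median of this list was 0.14.

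In systemic acquired resistance 2 of 5 genes were higher at the unadjusted threshold (2.48% of everything tested), and the median was 0.20. By array the median was 0.02 in *bli-1* replicate 1 and 0.39 in replicate 2, against the Col-0 mean. By fold change alone 2 were at least 1.5-fold higher and 1 lower (4.93% and 3.48% of everything tested). The lower gene was *ALD1*, with 7.04 and 7.78 in Col-0, against 6.79 and 6.65 in *bli-1*. Its groups did not overlap, and the difference was -0.69 (standard error 0.27, adjusted p = 0.506 by limma), not past the unadjusted threshold. *AZI1*, which encodes a lipid transfer-like protein, had 7.63 and 7.83 in Col-0, against 9.41 and 8.87 in *bli-1*. The groups were well apart, with a difference of 1.41 (standard error 0.22, adjusted p = 0.153 by limma). *AED1*, a gene of an apoplastic aspartyl protease, had 7.09 and 7.23 in Col-0, against 7.72 and 8.20 in *bli-1* (difference 0.80, standard error 0.20, adjusted p = 0.301). The brighter of its 2 probes alone gave 1.35, so the probes differed.

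Of 7 marker genes induced by salicylic acid 2 were higher and 1 lower at the unadjusted threshold (2.48% and 2.69% of everything tested), and the median was 0.36. Against the Col-0 mean the list median was -0.04 in *bli-1* replicate 1 and 0.68 in replicate 2, so it was not shared by the *bli-1* arrays. By fold change alone 2 were at least 1.5-fold higher and 2 lower (4.93% and 3.48% of everything tested). *PNP-A*, a gene of a secreted natriuretic peptide-like protein, had 6.89 and 6.90 in Col-0, against 8.46 and 9.27 in *bli-1* (difference 1.97, standard error 0.29, adjusted p = 0.138 by limma). Next came *NUDT6*, a Nudix hydrolase gene, with 7.06 and 7.27 in Col-0, against 7.72 and 7.96 in *bli-1* (difference 0.67, standard error 0.16, adjusted p = 0.275). *PCC1* had 15.16 and 14.98 in Col-0, against 13.46 and 14.52 in *bli-1*, so that both *bli-1* arrays were lower, replicate 1 much more so. Its difference was -1.08 (standard error 0.37, adjusted p = 0.437), and it passed the unadjusted threshold under 7 of 17 alternatives, which ranged from -1.62 to -0.55.

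In the list of other PR and defensin genes 1 of 8 was higher and 1 lower at the unadjusted threshold (2.48% and 2.69% of everything tested), with a median of 0.12. By array the median was 0.47 in *bli-1* replicate 1 and -0.13 in replicate 2, against the Col-0 mean. *PRB1*, a basic paralog of *PR1*, had 7.17 and 7.15 in Col-0, against 6.21 and 6.35 in *bli-1*, where 1 of the 2 arrays was well above background. This difference of -0.88 (standard error 0.13, adjusted p = 0.135 by limma) was opposite in sign to that of *PR1*. Its size depended on the treatment of the dim *bli-1* spots, from -0.74 to -4.37 over the alternatives, with -2.14 at an offset of 0 and -3.15 with background subtraction. *PR4*, a gene of a chitin-binding protein, had 14.09 and 13.66 in Col-0, against 14.89 and 14.40 in *bli-1* (difference 0.76, standard error 0.24, adjusted p = 0.398). The glucanase paralogs of *PR2* were dim. *BG1* had log2 signals of 6.26 to 6.32 on the 4 arrays, and *BG3* of 6.32 to 6.89, and on the Col-0 arrays neither was well above background. No fold change is taken from either as a result. Log2 differences over the alternatives ran from -0.26 to 2.08 for *BG1* and from -0.04 to 2.55 for *BG3*. *BG3* differed from the Col-0 mean by 0.54 in *bli-1* replicate 1 and by 0.00329 in replicate 2, and *BG1* was well above background on 1 *bli-1* array.

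**Figure D4:**
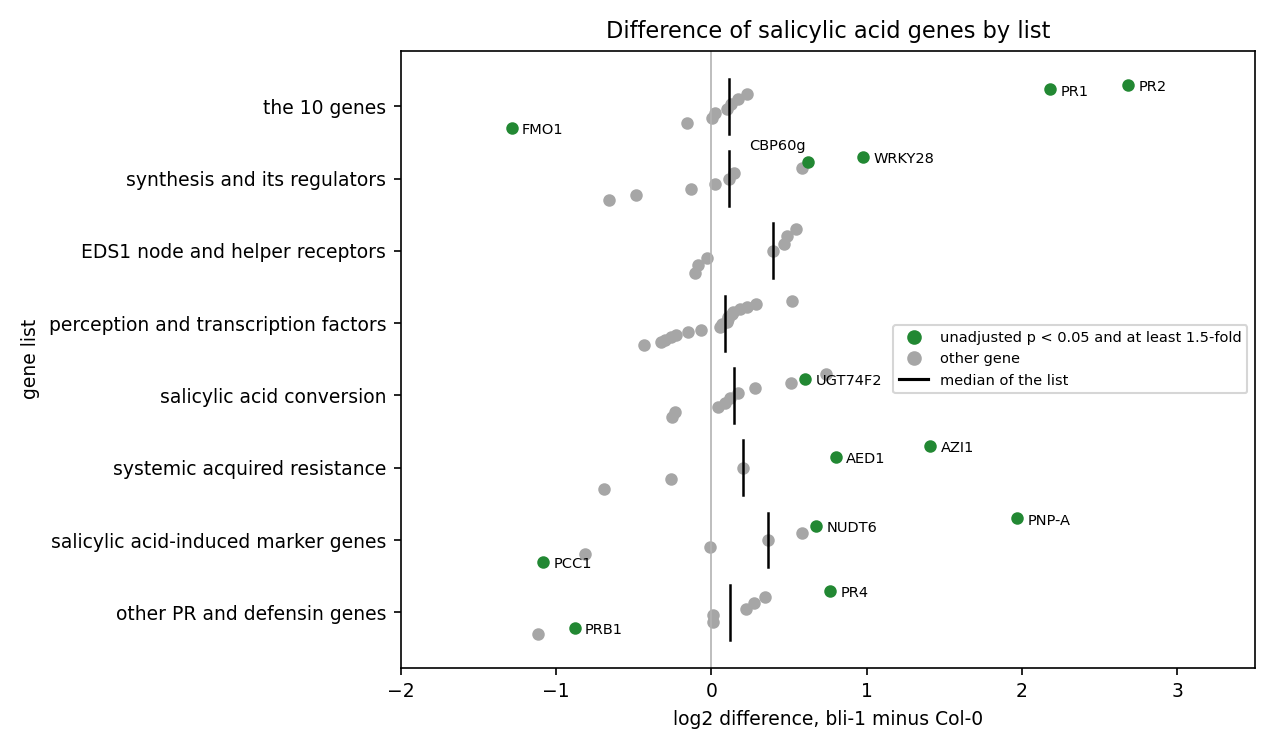
Log2 difference between *bli-1* and Col-0 of the 10 genes and of the 64 measured genes of the 7 wider lists, 1 point per gene, with the median of each list as a line and the genes at an unadjusted p below 0.05 and at least 1.5-fold in green. *PR2*, *PR1* and *PNP-A* lie farthest to the right, at 2.68, 2.18 and 1.97, and the list medians between 0.09 and 0.39.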

How the data were processed

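The deposited values are the median spot intensity and local background intensity from the scanner software (Feature Extraction 11.0.1.1), which the authors left without normalization between arrays. The paper describes background correction and quantile normalization in limma, without the kind of correction or an offset. It lists *PR2* among its most up-regulated genes, and it reports far more genes in each direction than the 33 higher and 6 lower called here. It also reports that many genes induced in systemic acquired resistance were up-regulated in *bli-1*, a comparison not repeated here. Here normexp (offset 50, limma 3.58.1, R 4.3.3) was run on all spots of each array, and control spots were then dropped, which left 43803. Spots marked as outliers (4 to 19 an array) became missing values, and log2 values were quantile normalized. The offset shrinks the fold changes of dim genes. Values were averaged over spots and then over a gene's probes. Of 35703 spots with a RefSeq mRNA accession, 34414 were matched to a locus.

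Genotypes were compared with lmFit and eBayes (prior degrees of freedom 2.79) on all 4 arrays, with Benjamini-Hochberg adjustment over 34291 genes and transcripts, and called at an adjusted p below 0.05 and 1.5-fold. Intervals are 95%. The test was tested on simulated data before use.

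The members and lists were chosen with earlier results of these data known. Named were all 10 members, close paralogs, *BLI* and, per wider list, up to 4 genes at an unadjusted p below 0.05 and 1.5-fold, well above background on both arrays of a genotype. *ALD1* is named outside this rule, for its fold change alone, and its values under the alternatives are not given. Shoot, root, seed and flower markers were looked at. Seed markers (*CRA1*, *OLEO1*, *SESA1*) and *AG* were not well above background on either Col-0 array, and *AP3* was on 1. In *bli-1* each seed marker was on 1 array, and *AG* and *AP3* were on both. Their log2 signals in *bli-1* were low, at 6.24 and 6.51 for *CRA1*, 6.24 and 6.94 for *OLEO1* and 6.32 and 6.37 for *SESA1*. *AG* had 6.39 and 7.00, and *AP3* 6.78 and 6.56. On *bli-1* replicate 2 91.7% of all gene spots were well above background, so this mark alone says little of expression there.

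The 17 alternatives were normexp offsets of 0 and 16, background subtraction (floor 0.5), the scanner software's processed signal with quantile or 75th percentile scaling, normexp with 75th percentile scaling, dim probes left out, outlier spots kept, probe by probe, eBayes with trend and robust options, slide as a block, the replicate number as a block, each of 4 arrays left out, and quantile normalization before the log2 transform. The last, and the counts at an unadjusted p under each alternative, were chosen after seeing the data. Where 1 array of a genotype is left out, the lone array is assumed to vary like the other genotype's. Leaving out *bli-1* replicate 1 and taking slide as a block both compare *bli-1* replicate 2 with the Col-0 arrays, so they are not independent.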

Additional observations from a re-analysis of the deposited data

How the results depend on the processing

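The 10 genes held 0 calls under 15 of 17 alternatives and 2 (*PR1*, *PR2*) without *bli-1* replicate 1 or with slide as a block. Leaving out each array gave 0 to 2 calls for the 10 genes, 0 to 14 for the wider lists and 0 to 5093 for all genes, against 39 for all genes as reported. With slide as a block 15 genes of the wider lists and 5690 of all genes were called. Of the 15 genes 11 were higher and 4 lower, beside 9.33% and 7.27% of everything tested. In that fit *bli-1* is represented by 1 array, so the direction of the 15 is not taken as a result about the pathway. At an unadjusted p the counts were 3, 10 and 1773. All genes gave 12 calls with an offset of 16, 115 with dim probes left out, 115 with trend and robust options, and 0 with an offset of 0, background subtraction, either processed signal, normexp with 75th percentile scaling or the replicate number as a block. With that replicate block 0 of the 10 genes were called and *PR2* had an adjusted p of 0.0912. Deviations of same-numbered arrays correlated at 0.07, and the labels do not pair them. At the unadjusted threshold *PR2* was the only member passing with an offset of 0, background subtraction, either processed signal, normexp with 75th percentile scaling and without Col-0 replicate 2, and *PR2* and *FMO1* passed without *bli-1* replicate 2. The median of the 10 genes, 0.11 as reported, was 0.25 with the processed signal at 75th percentile scaling, 0.16 probe by probe, 0.18 with slide as a block and 0.12 to 0.17 with 1 array left out. Signs turned for members and paralogs near 0. *PBS3* was at -0.0150 with an offset of 0, -0.00498 with an offset of 16, -0.0263 with subtraction, -0.0215 with the quantile normalized processed signal and -0.11 with normexp at 75th percentile scaling, where the median of all genes was -0.12. *PAD4* was at -0.00762 with subtraction and -0.0734 with slide as a block. *ICS2* was at -0.21 with slide as a block, *NPR2* at 0.81 with the scaled processed signal, and *BG1* and *BG3* at -0.26 and -0.0422 with normexp at 75th percentile scaling. With 1 array left out *PBS3* ranged from -0.24 to 0.22, *PAD4* from -0.0644 to 0.12, *PR5* from -0.37 to 0.0769, *EDS1* from -0.0379 to 0.22, *ICS2* from -0.20 to 0.45, *NPR2* from -0.19 to 0.0843, *NPR3* from -0.0515 to 0.25, *BG1* from -0.00665 to 0.0445 and *BG3* from -0.0445 to 0.59. The causes were not tested. The other genes named by the rule kept their sign throughout, with *BLI* between -3.44 and -0.42. No value has more than 2 arrays behind it per genotype, and dim spots such as *PR1* in Col-0 replicate 2 limit the size of a fold change.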
